A study of Mus musculus with 3 samples.

Results

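The wide Brachyury regions are the 345 of 3160 regions in a common list from mouse mesoendoderm cells that measured 1200 bp or more (10.9% of the list, Wilson 95% confidence interval 9.88% to 12.1%). They were chosen by their width, which is the end minus the start of each deposited region, and the other 2815 regions are called narrower here. The assay was ChIP-seq, chromatin immunoprecipitation followed by sequencing: an antibody recovers a protein together with the DNA it occupies, and that DNA is read. D3 mouse embryonic stem cells, labelled as coming from (C3H/HeH x 101/H)F1 mice, were differentiated toward mesoendoderm in serum-free medium with Activin A. Of the 3 libraries, 1 was made with each of 2 custom rabbit antibodies against Brachyury and 1 with pre-immune IgG as a mock. All 3 came from this single cell line under the same treatment, with no replicate of any group. Both antibodies were raised against a GST fusion of the same stretch of Brachyury, so they are not independent of each other in the part of the protein they see.

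Brachyury, the product of the T gene, is a T-box transcription factor that binds DNA through its T domain at short recognition sequences, singly or as paired sites. It is switched on in the primitive streak and is needed for posterior mesoderm and the notochord. Mesoendoderm cells are the precursors that give rise to mesoderm and definitive endoderm, and Activin A drives embryonic stem cells toward them through the receptors that also serve Nodal. In ChIP-seq, the width of a region is the stretch over which recovered fragments stand above the local background, so it depends on the binding itself, on fragment length and on the peak caller's settings.

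Each region has a chromosome, a start and an end on build mm9, and no height, score or p-value. Read depth, the signal behind a region and any difference between the antibodies or from the mock are therefore unknown. If the list holds the overlap of both antibodies' peaks, which the sources used here do not state, a width measures how far the peaks overlap. Positions below count from 1. No mm9 genome or annotation was used, so the genes, exons and sequence under the regions, and the markers of the labelled cell type, were not analysed here.

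The wide regions were the tail of a single broad distribution of widths, and had no gap that set them apart from the rest of the list. Their median width was 1376 bp (quartiles 1268 and 1556 bp), beside 813 bp for the narrower regions (quartiles 662 and 950 bp). Together the wide regions covered 504 kb, which was 18.3% of all bases in the list. Most were only moderately wide, with 228 (66.1% of them) under 1500 bp, 102 (29.6%) from 1500 bp to under 2000 bp and 15 (4.35%) of 2000 bp or more. Since width chose them, these values are a description, with no test.

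At the threshold itself the widths ran on evenly. The 5 narrowest wide regions measured 1200 bp (chromosome 4, 137860145 to 137861344), 1202 bp (chromosome 14, 66569388 to 66570589), 1203 bp (chromosome 18, 24178521 to 24179723), 1204 bp (chromosome 14, 63379510 to 63380713) and 1205 bp (chromosome 4, 11827059 to 11828263, 1 of 5 regions of that width). Just outside lay 3 regions of 1198 bp, on chromosome 5 at 116182077 to 116183274, chromosome 14 at 27457167 to 27458364 and chromosome 19 at 7568393 to 7569590. The next were 2 regions of 1197 bp, on chromosome 2 at 52716449 to 52717645 and chromosome 4 at 104954864 to 104956060. The plot of all widths shows the same unbroken decline across the threshold.

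**Figure D1:**
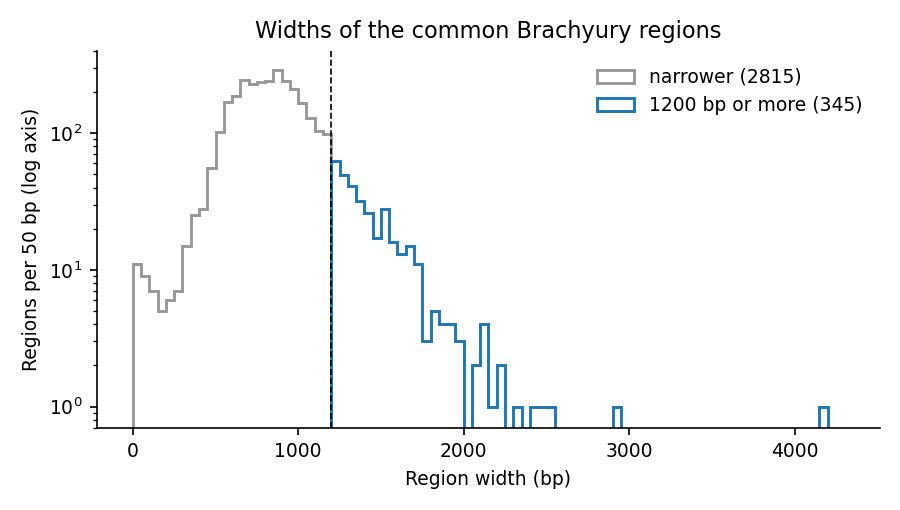
Number of regions per 50 bp of width (vertical log axis) against region width in bp, for the 2815 narrower regions (grey) and the 345 regions of 1200 bp or more (blue). The dashed line marks 1200 bp. Numbers decline across it without a gap, and the region of 4180 bp stands alone at the right.

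The widest region, of 4180 bp, occupied chromosome 17 from 39979840 to 39984019. Another wide region, of 1553 bp (39984388 to 39985940), began 368 bp beyond its end, and the nearest region on the other side was 2.81 Mb away. No other region of the list came near it in width. Whether this pair lies on repeated sequence was not checked here, and the shares of regions with company are given below with and without it.

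Chromosome 14 held 4 of the 15 regions of 2000 bp or more. These measured 2910 bp (106295864 to 106298773), 2537 bp (117324007 to 117326543), 2205 bp (104865345 to 104867549) and 2100 bp (87815423 to 87817522). Chromosomes 4 and 7 held 2 each. On chromosome 4 these measured 2166 bp (151368894 to 151371059) and 2072 bp (141101126 to 141103197), and on chromosome 7 they measured 2346 bp (75095249 to 75097594) and 2134 bp (134169238 to 134171371). The last of these began 42 bp after a region of 558 bp (134168638 to 134169195), so the deposited list separates the pair by a very short gap.

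The other regions of this size were single on their chromosomes. They measured 2462 bp on chromosome 18 (36047056 to 36049517), 2441 bp on chromosome 8 (86422954 to 86425394), 2202 bp on chromosome 19 (4396594 to 4398795) and 2125 bp on chromosome 10 (80038991 to 80041115). A region of 2103 bp lay on chromosome 13 (58502691 to 58504793) and 1 of 2099 bp on chromosome 11 (102177732 to 102179830). The list of the 20 widest was completed by regions of 1972 bp on chromosome 8 (86398694 to 86400665), 1964 bp on chromosome 10 (5957994 to 5959957), 1963 bp on chromosome 4 (45542335 to 45544297), 1938 bp on chromosome 3 (88356368 to 88358305) and 1935 bp on chromosome 7 (26033916 to 26035850).

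On the remaining autosomes the widest region was shorter than 2000 bp. Chromosome 6 reached 1913 bp (120442707 to 120444619), chromosome 16 reached 1872 bp (30063013 to 30064884), chromosome 5 reached 1870 bp (102192954 to 102194823) and chromosome 15 reached 1856 bp (93227325 to 93229180). Chromosome 12 reached 1808 bp (77470028 to 77471835), chromosome 9 reached 1629 bp (118395597 to 118397225), chromosome 2 reached 1625 bp (156903857 to 156905481) and chromosome 1 reached 1620 bp (36613798 to 36615417). Among the autosomes, chromosomes 1 and 2 had the shortest maxima, with chromosome 9 only a few bp above them. Chromosome 2 nevertheless had as many wide regions as any chromosome.

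Wide regions occurred on all 19 autosomes and were over-represented on chromosome 14. There, 30 of 150 regions were wide (20%, Wilson 95% interval 14.4% to 27.1%), against 10.5% of the regions elsewhere. The difference was 9.53 percentage points (95% interval 3.80 to 16.7 points, odds ratio 2.14), and it passed a two-sided Fisher's exact test adjusted over 20 chromosomes (adjusted p = 0.0140). Chromosome 14 was the only chromosome that passed, which is 5.0% of the 20 tested. These tests treat regions as independent, which close neighbours are not, and earlier results from the same list had already compared widths between chromosomes. The call is therefore no independent support.

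On the other autosomes, the share of regions that were wide ran from 5.67% on chromosome 12 (8 of 141, Wilson 95% interval 2.90% to 10.8%) to 16.2% on chromosome 19 (18 of 111, interval 10.5% to 24.2%). Chromosome 17 came next to the top with 15.8% (24 of 152, interval 10.8% to 22.4%), and chromosome 13 followed with 14.2% (19 of 134, interval 9.27% to 21.1%). At the low end were chromosome 9 with 7.57% (14 of 185) and chromosome 15 with 7.69% (10 of 130). None of these passed the adjusted test, in which the smallest adjusted p beside that of chromosome 14 was 0.382, for chromosome 12. The intervals of chromosomes 14, 17 and 19 overlap, and these chromosomes were not tested against each other, so no order is claimed.

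By number, chromosomes 2 and 14 each held 30 wide regions, chromosome 11 held 28, chromosome 5 held 26 and chromosome 17 held 24. Chromosome 2 needed 269 regions to reach the 30 that chromosome 14 had among 150. Per 10 Mb between a chromosome's outermost regions, there were 3.15 wide regions on chromosome 19, 2.62 on chromosomes 14 and 17 and 2.37 on chromosome 11, with a median of 1.19 over the 19 autosomes and a minimum of 0.683 on chromosome 12. Across the autosomes the number of wide regions went with that of narrower ones only in part (Pearson's r 0.60, Spearman's rho 0.52, 19 autosomes). Both counts on a chromosome come from the same list and the same length of DNA.

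On chromosome X, 0 of 15 regions were wide, so the data allow a wide share of up to 20.4% there (upper Wilson 95% bound). At the share of the other chromosomes (11.0%), 15 regions are too few to show a lack of wide ones, and the difference did not pass (two-sided Fisher's exact test, adjusted p = 0.876). Seen from the wide regions, a count of 0 among 345 sets a limit of 0.870% on X (3 counts of the total), and X held 0.533% of the narrower regions. A lack of wide regions on X beyond its general scarcity of regions was thus not detectable with this number of regions. At 1000 bp or more, too, 0 of its 15 regions qualified, a difference of -26.8 points with an unadjusted p of 0.0160 and an adjusted p of 0.239 (Fisher's exact test). The median width on X, 659 bp, was the lowest of all 20 chromosomes.

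**Figure D2:**
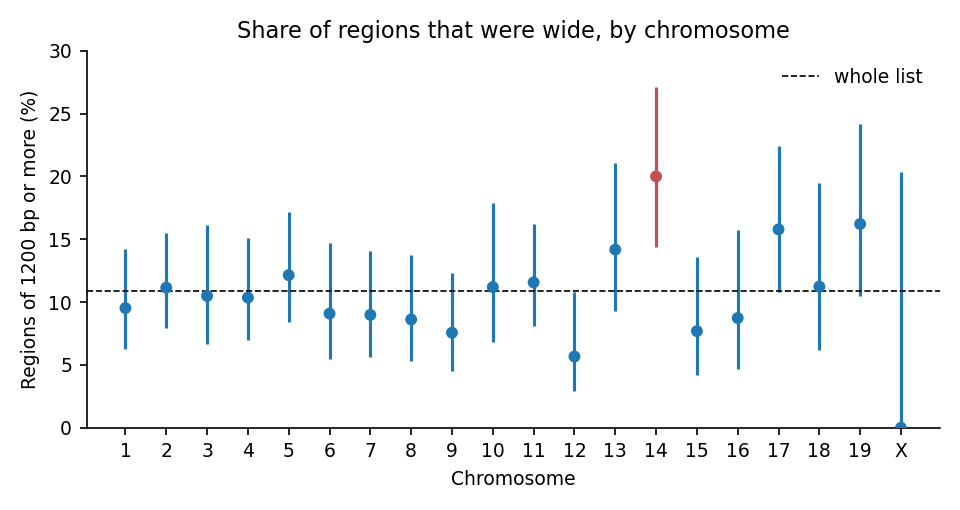
Percentage of each chromosome's regions that measured 1200 bp or more (vertical axis) by chromosome. Points are shares, bars are Wilson 95% intervals, the dashed line is the whole list at 10.9%, and red marks the chromosome that passed the adjusted Fisher's exact test. Chromosome 14 sits highest at 20% and chromosome X at 0.

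The wide regions of chromosome 14 were concentrated toward its far end. From 100 Mb onward, 19 of 40 regions were wide (47.5%), against 11 of the 110 regions before that point (10%), a share close to that of the whole list without the far end (10.4%). The boundary was set after the positions had been seen, so this contrast is a description with no test. The 19 wide regions measured 1237 to 2910 bp with a median of 1501 bp, and the 21 narrower regions of the same stretch had a median of 830 bp. The rule limits the width of the latter, so that median says nothing of the widths in the stretch as a whole.

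In successive 10 Mb windows, chromosome 14 had 0 of 3, 1 of 9, 0 of 19, 1 of 10, 0 of 13, 1 of 14, 2 of 20, 4 of 13, 1 of 3, 1 of 6, 10 of 18, 6 of 12 and 3 of 10 wide regions. The window from 100 to 110 Mb held the most, and in it wide regions outnumbered narrower ones. In the window from 20 to 30 Mb, with 19 regions, none reached 1200 bp.

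**Figure D3:**
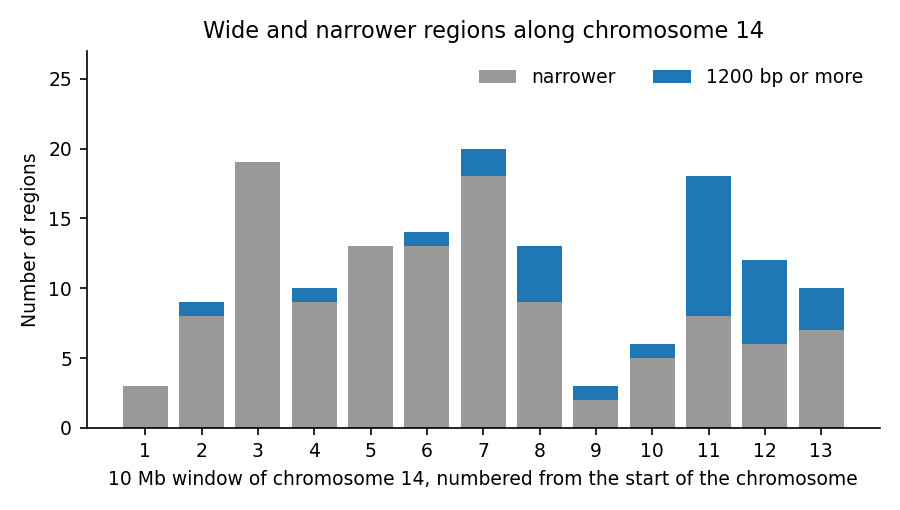
Number of regions (vertical axis) in 13 successive 10 Mb windows of chromosome 14, with narrower regions in grey and regions of 1200 bp or more in blue. The wide regions collect in windows 11 to 13, with 10, 6 and 3 of them.

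The dense stretch started with a wide region of 1704 bp at 100683525 to 100685228. Between 103497735 and 106320666 followed 9 more, of 1345, 1503, 1632, 2205, 1260, 1266, 1265, 2910 and 1496 bp in that order. Most were well apart, and the closest pair among them was separated by 20.4 kb. After a lone region of 1715 bp at 112073785 to 112075499, whose nearest neighbour was 3.36 Mb away, came a pair at 115439227 to 115442103, with widths of 1513 and 1343 bp and a gap of 21 bp. The region of 2537 bp followed, and then 2 regions of 1616 bp (118635128 to 118636743) and 1422 bp (118872877 to 118874298). The stretch ended with 1351 bp at 121777408 to 121778758 and a pair of 1501 and 1237 bp, separated by 8.97 kb, at 122863388 to 122875095. Of these 19 regions, 8 had another region within 50 kb (42.1%), and their median gap to the nearest region was 80.4 kb.

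In percentage points the excess on chromosome 14 was largest at 1200 bp among the widths tried, while the share itself fell with width there and elsewhere. As a ratio of the shares, the excess was larger at 1500 and 2000 bp than at 1200 bp. At 2000 bp or more the share on chromosome 14 was 2.67% (4 of 150) against 0.365% elsewhere (11 of 3010). At 1500 bp or more it was 10.7% (16 of 150) against 3.36% (101 of 3010), which passed (two-sided Fisher's exact test, adjusted p = 0.0019). At 1000 bp or more it was 33.3% (50 of 150) against 26.3% (793 of 3010), which did not pass (two-sided Fisher's exact test, adjusted p = 0.310), and at 850 bp or more 55.3% against 49.8%. The median width on chromosome 14, 875 bp, was exceeded only by those of chromosomes 11 (879 bp) and 19 (919 bp). Its higher shares were thus not confined to the tail, though the share at 850 bp or more was not tested.

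Outside chromosome 14, the 5 Mb window with the most wide regions lay on chromosome 13 between 55 and 60 Mb, with 6 of 19 regions. These measured 1547 bp (55312205 to 55313751), 1347 bp (56235830 to 56237176), 1381 bp (58229286 to 58230666), 1681 bp (58315731 to 58317411), 1209 bp (58375064 to 58376272) and 2103 bp (58502691 to 58504793). The last 4 lay within 275.5 kb of each other. In the list as a whole, 211 of the 479 such windows that held any region held a wide one, and 14 held 4 or more. Wide regions were otherwise scattered, with a median gap of 3.18 Mb to the next wide region on the same chromosome (quartiles 0.905 and 8.41 Mb, 326 gaps). The longest of these gaps ran for 52.4 Mb on chromosome 15, from 7039714 to 59478916.

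Wide regions had company more often than narrower ones. The distance used was the gap between facing edges to the nearest region of any width, so that a region's own width did not lengthen it. The median gap was 106 kb for wide regions (quartiles 32.4 and 255 kb) and 136 kb for narrower ones (quartiles 46.5 and 352 kb). Another region lay within 50 kb of 117 of 345 wide regions (33.9%) and of 741 of 2815 narrower ones (26.3%). The difference was 7.59 percentage points (95% interval 2.52 to 12.98 points) and passed a two-sided Fisher's exact test adjusted over 3 distances (adjusted p = 0.0115). Company is mutual, so both members of a close pair count. The tests at all 3 distances treat regions as independent, which such members are not.

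At 100 kb the shares were 49.6% (171 of 345) and 41.9% (1180 of 2815), a difference of 7.65 points (95% interval 2.09 to 13.2 points, Fisher's exact test, adjusted p = 0.0119). At 10 kb they were 13.6% (47 of 345) and 10.02% (282 of 2815), a difference of 3.61 points (interval 0.180 to 7.76 points, Fisher's exact test, adjusted p = 0.0492). This last call was at the threshold, and it was lost without the pair that holds the widest region (Fisher's exact test, adjusted p = 0.0904) and when any 1 of chromosomes 2, 6, 7, 10, 11, 16 and 17 was left out. Without that pair the differences at 50 and 100 kb were 7.20 and 7.35 points (Fisher's exact test, adjusted p = 0.0163 for each). They also held within chromosomes in a Mantel-Haenszel chi-square test over 19 autosomes, where the common odds ratios were 1.39 (95% interval 1.09 to 1.76, adjusted p = 0.0164) and 1.35 (interval 1.08 to 1.69, adjusted p = 0.0164). When wide meant 1000 bp or more, the differences at 50 and 100 kb were 5.03 and 8.18 points (Fisher's exact test, adjusted p = 0.0087 and 0.00014). At 100 kb the difference was thus larger than with 1200 bp, so the excess did not begin at the width rule. When wide meant 1500 bp or more, with 117 regions, the differences at 50 and 100 kb were smaller than with 1200 bp, 3.76 and 4.42 points. Both were then lost (Fisher's exact test, adjusted p = 0.397 for each). Earlier results from the same list had compared widths with and without company, so these shares are not independent support either.

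Within the wide regions, the share with company varied between width classes. Among those under 1500 bp, 81 of 228 had a region within 50 kb (35.5%, Wilson 95% interval 29.6% to 41.9%). Among those from 1500 to under 2000 bp it was 27 of 102 (26.5%, interval 18.9% to 35.8%), and among those of 2000 bp or more 9 of 15 (60%, interval 35.7% to 80.2%). The share of the middle class was close to that of all narrower regions (26.3%, 741 of 2815), so this class showed no excess within 50 kb. The interval of the middle class ends at 35.8% and that of the widest class begins at 35.7%, so they barely overlap. The classes were not tested against each other, so no order is claimed. Among narrower regions of 300 bp or more the share went from 23.7% at 300 to under 600 bp to 28.7% at 1000 to under 1200 bp. Regions under 300 bp stood apart, with 24 of 45 in company within 50 kb, and 22 of these had the neighbour within 1 kb. Within 100 kb, 240 of 498 regions of 1000 to under 1200 bp had company (48.2%). The share was 50.9% from 1200 to under 1500 bp (116 of 228) and 44.1% from 1500 to under 2000 bp (45 of 102). At 2000 bp or more it was 66.7% (10 of 15). Company within 100 kb was thus not particular to the wide regions. Wide regions with and without a neighbour within 50 kb had similar median widths, 1363 bp (117 regions) and 1386.5 bp (228 regions).

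**Figure D4:**
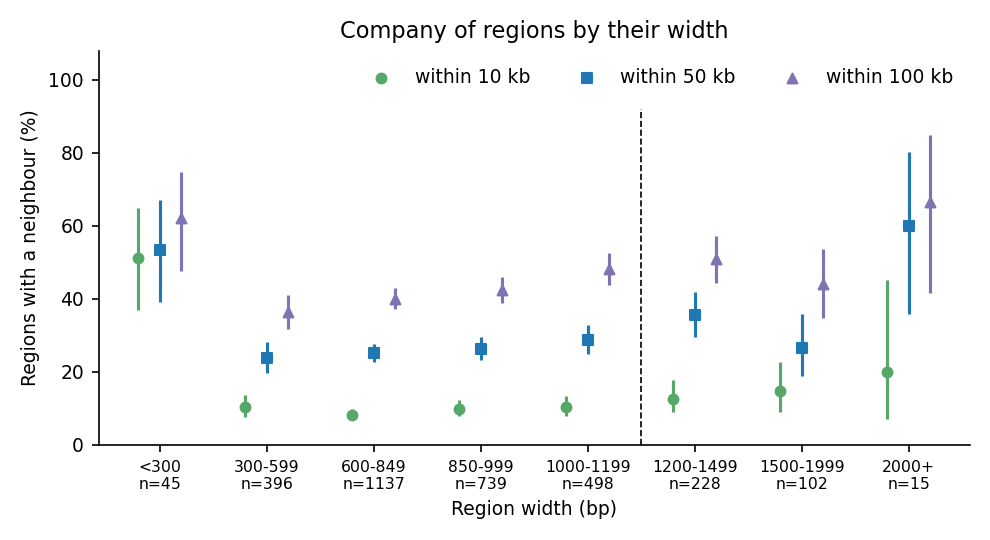
Percentage of regions with another region within 10, 50 or 100 kb (vertical axis) by width class in bp, with the number of regions under each class. Points are shares, bars are Wilson 95% intervals, and the dashed line marks 1200 bp. At 50 kb the share is 28.7% just below the line and 35.5% just above it, with overlapping intervals. It is 26.5% from 1500 to under 2000 bp and 60% at 2000 bp or more.

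On a larger scale the surroundings of wide and narrower regions had the same median density. The median number of other regions within 1 Mb on either side was 4 for both (quartiles 3 and 6 for wide, 2 and 6 for narrower). No other region lay within 1 Mb of 11 wide regions (3.19%) and 194 narrower ones (6.89%), a contrast that was not tested. The most isolated wide regions were 1 of 1229 bp on chromosome 3 (157609557 to 157610785), with 3.62 Mb to its neighbour, and the region of 1715 bp on chromosome 14 described above. Chains of 3 or more regions, with midpoints no more than 50 kb apart, held 32 of the wide regions (9.28%) and 216 of the narrower ones (7.67%), and no chain held more than 2 wide regions.

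Close neighbours of wide regions were wide more often than close neighbours of narrower regions, though most of them were narrower. Over adjacent regions with a gap of up to 100 kb, 56 of the 210 neighbours of wide regions were wide (26.7%), against 154 of the 1382 neighbours of narrower regions (11.1%). Beyond 100 kb the shares were 11.7% (56 of 477) and 9.998% (421 of 4211), near the 10.9% of the whole list. Without chromosome 14 they were 24.2% (46 of 190) and 10.9% (144 of 1320) up to 100 kb. Each pair of wide neighbours counts once from either side, and width chose the members, so these shares carry no test.

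By gap, the share of wide regions' neighbours that were wide was 26.1% under 1 kb (6 of 23), 37.0% from 1 to 10 kb (10 of 27), 19.5% from 10 to 50 kb (16 of 82) and 30.8% from 50 to 100 kb (24 of 78). It was 13.1% from 100 kb to 1 Mb (48 of 366) and 7.21% beyond 1 Mb (8 of 111). Without the pair of the widest region, the share under 1 kb was 19.05% (4 of 21). The neighbours of narrower regions were wide in 8.44% to 12.6% of cases in all 6 classes. In each class up to 100 kb the share was higher beside wide regions, but it did not change steadily with the gap. Few pairs lay in each of the closer classes. These counts describe the measure that chose the members and were not tested.

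**Figure D5:**
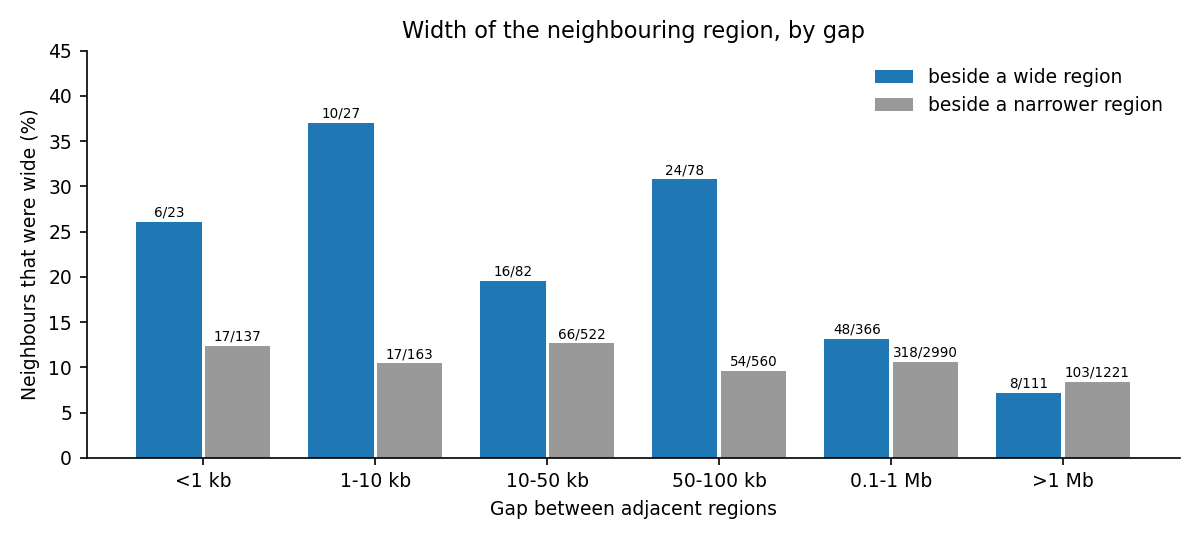
Percentage of adjacent regions that measured 1200 bp or more (vertical axis) beside a wide region (blue) or a narrower one (grey), by the gap between the facing edges. Numbers over the bars give wide neighbours over all neighbours. Up to 100 kb the blue bars stand between 19.5% and 37.0%, and the grey bars stay at or below 12.6%.

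Gaps of no more than 50 kb separated 18 pairs of wide regions, on 11 chromosomes, and in 16 of them no narrower region lay between. They held 36 wide regions (10.4% of all), and no chain of 3 occurred. The closest 3 pairs were within 1 kb. On chromosome 14 the gap was 21 bp, as given above. On chromosome 17, regions of 1315 and 1420 bp (34257037 to 34259996) were 225 bp apart, and a region of 1123 bp (34255587 to 34256709) ended 327 bp before them, so this locus was covered almost without a break over 3 regions. The other pair on chromosome 17 within 1 kb was that of the widest region.

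A further 6 pairs had gaps of 1 to 10 kb. On chromosome 4, regions of 1277 and 1559 bp (133309681 to 133313931) were 1.42 kb apart. On chromosome 2, regions of 1209 and 1480 bp (147865943 to 147872950) were 4.32 kb apart. On chromosome 16, regions of 1872 and 1219 bp (30063013 to 30071122) were 5.02 kb apart, with 1 narrower region between. A pair of equal width, 1285 bp each, lay on chromosome 17 at 8581544 to 8590164 with a gap of 6.05 kb. Chromosome 11 had a nearly equal pair of 1359 and 1362 bp (74643427 to 74652394) with a gap of 6.25 kb. The last was the pair with a gap of 8.97 kb near the end of chromosome 14.

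The remaining 9 pairs were 10 to 50 kb apart. Chromosome 2 had 2 of them, of 1418 and 1276 bp (29921487 to 29934200, gap 10.02 kb) and of 1220 and 1416 bp (179758861 to 179777864, gap 16.4 kb). On chromosome 14 the region of 2910 bp was paired with 1 of 1496 bp over 20.4 kb. On chromosome 8, regions of 1972 and 2441 bp (86398694 to 86425394, gap 22.3 kb) formed the only pair whose members were both among the 20 widest. Chromosome 7 had a pair of 1935 and 1252 bp (26033916 to 26068353, gap 31.3 kb, with 1 narrower region between) inside a chain of 7 regions, and another of 1263 and 1443 bp (134851394 to 134890510, gap 36.4 kb). The others were on chromosome 1 (1395 and 1206 bp, 180298841 to 180336901), chromosome 10 (1546 and 1440 bp, 79819125 to 79862690) and chromosome 9 (1231 and 1206 bp, 57612308 to 57660936), with gaps of 35.5, 40.6 and 46.2 kb.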

How the data were processed

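The deposited file lists 3160 regions by chromosome, start and end in bp, without a header. Per the submitters' processing notes, Bowtie, MACS2 and mm9 were used, with no version or role stated. How both antibodies' lists were combined is not given in the sources used here. Starts were raised by 1. The members, lists and tests were chosen with earlier results of these data known. Python 3.11.15, scipy 1.17.1, statsmodels 0.14.6, pandas 2.3.3 and numpy 2.4.6 were used, with plots by matplotlib 3.10.9.

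Shares of wide and narrower regions were compared by two-sided Fisher's exact tests with Benjamini-Hochberg adjustment over 20 chromosomes or 3 distances and a threshold of 0.05, with Newcombe 95% intervals for differences. The tests were checked on simulated lists in which wide regions were drawn at random, region by region. That check does not cover likeness in width between neighbours, which is described above without a test. Intervals cover counting error only and treat regions as independent. Regions named are the 20 widest, the widest per chromosome, 5 on either side of 1200 bp, and pairs of wide regions within 50 kb. Members of the densest windows, the far end of chromosome 14 and the most isolated regions were named after their values were seen, as were the region of 558 bp on chromosome 7 and that of 1123 bp on chromosome 17. The promoter, gene group and motif comparisons planned for an mm9 genome were not run, as only GRCm38 tables were at hand.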

Additional observations from a re-analysis of the deposited data

How the results depend on the processing

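No paired analysis was possible because no group has a replicate and the list is shared by the libraries. Of 44 recomputed values, leaving aside those with 1 chromosome left out, 33 stayed on the same side of the threshold with the same sign or, for counts, within 1.5 times, and 0 turned. The tally includes the comparison for chromosome X, which passed in no setting. It also holds the call on chromosome 14 both as a share and as a number of chromosomes. These values are therefore not separate checks, and the tally does not measure how firm the calls are. The number of wide regions was 843 at 1000 bp or more and 117 at 1500 bp or more, as those choices fix. With 1000 bp, 0 chromosomes passed (Fisher's exact test) and the share on chromosome 14 was 33.3% (adjusted p = 0.310). Its adjusted p was 0.0019 at 1500 bp and at most 0.0141 in the other alternatives. The difference within 10 kb missed the threshold in Fisher's exact test with 1000 bp (1.82 points, adjusted p = 0.147), 1500 bp (5.16 points, adjusted p = 0.263), distances between midpoints (3.12 points, adjusted p = 0.0671), without the pair of the widest region (3.10 points, adjusted p = 0.0904) and as a common odds ratio within chromosomes (1.36, adjusted p = 0.0849). With 1 autosome left out it ranged from 2.34 to 4.52 points and was lost in 7 of 19 cases. With 1500 bp, and 117 regions, the differences at 50 kb (3.76 points, from 7.59) and 100 kb (4.42 points, from 7.65) were smaller. They missed the threshold too (Fisher's exact test, adjusted p = 0.397 for each). With 1000 bp the differences at these distances were 5.03 and 8.18 points and passed (Fisher's exact test, adjusted p = 0.0087 and 0.00014). With 1 autosome left out, those at 50 and 100 kb stayed past the threshold in all 19 cases (largest adjusted p 0.0308 and 0.0420). The stratified odds ratios, the cases with 1 autosome left out, those without the widest pair and the alternatives for chromosome 14 were chosen after seeing the data. Without read depth, regions lost to shallow sequencing could not be counted. Alternatives for promoters, gene groups and motifs were not run.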
